A study of Homo sapiens with 4 samples.

Results

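The comparison described here sets HCT116 cells that overexpress human IDO1 against wild type HCT116 cells, both kept with 1 mM indole for 24 h. It uses 2 of the 4 libraries of the study, chosen by their labelled genotype and treatment and matched gene by gene. The other 2 libraries are the same lines with DMF, the solvent control, and their values are given beside the indole values. HCT116 is an established human colon cancer cell line, and the labels call the genotypes wild type and hIDO1 overexpressing. The vector and the promoter that drive IDO1, and whether the line is 1 clone, are not stated in the sources used here. Wild type cells are not described as carrying an empty vector, so the overexpressed gene and the making of the line cannot be told apart.

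Messenger RNA was measured by amplicon sequencing, which reads 1 short PCR target per gene. Each group had 1 library, although the design text states 2 replicates each, and whether a column pools replicates is not stated. There was therefore no replicate check of any difference, and no p-value was computed. Each fold carries a 95% interval that covers counting error between 2 libraries, and reads from PCR carry no molecular identifiers, so they are not independent molecules. In bulk RNA, fewer cells of a kind and less RNA per cell cannot be told apart.

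IDO1, indoleamine 2,3-dioxygenase, opens the indole ring of tryptophan and so starts the kynurenine pathway, which leads towards NAD. Kynurenines and bacterial indoles are both tryptophan products known as ligands of the aryl hydrocarbon receptor AHR, a transcription factor of the gut epithelium. When an amino acid such as tryptophan runs short, cells activate the kinase GCN2 and the transcription factor ATF4, which raises amino acid transport and synthesis genes.

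All 4 libraries listed 20812 targets, of which 14892 to 15505 had reads, and totals ranged from 18283862 to 22736172 reads. Levels are given as CPM, reads per gene on a common library size, scaled by TMM, edgeR's factor for library composition. The floor used where a gene had no reads, 3 reads, is 0.131 to 0.157 CPM. Each gene's 4 values are given in a fixed order, first wild type and then the IDO1 line, and within each line DMF before indole. Levels are compared between libraries within a gene, not between genes. The epithelial markers EPCAM, CDH1, KRT8, KRT18 and KRT19 and the intestinal factor CDX2 were present in all 4 libraries. The colon markers GPA33, CEACAM5 and CDX1 had 0 reads in all 4, and VIL1 had 0 to 2.

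The wild type library with indole stood apart from the other 3 libraries. Between it and wild type with DMF, 252 of 8679 compared genes lay at least 2-fold apart, and between it and the IDO1 line with DMF 348 of 8696. Among the 3 pairs that leave it out, the lines in DMF gave 38 genes, the treatments of the IDO1 line gave 7, and the IDO1 line with indole set against DMF-treated wild type gave 31. The main comparison rests on this library, so the counts and the list medians against DMF-treated wild type are given beside the results. Whether its difference comes from the treatment, the culture or the library cannot be told apart with 1 library per group.

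IDO1 reads numbered 0, 2, 3451 and 2440 in the 4 libraries. It was high in both libraries of the IDO1 line and near 0 in both of wild type. In indole the ratio was 1234-fold, with an interval of 341 to 10192 that is wide because of the 2 wild type reads. IDO2, the neighbouring paralog, had 0, 0, 317 and 253 reads, a difference of at least 85.3-fold in indole. Reads of the paralogs may be shared between their targets, so the IDO2 value is uncertain.

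Of 8765 genes with at least 10 CPM in 1 of the 2 indole libraries, 395 were at least 2-fold apart on the scale of log2(CPM + 1), or 4.51%. The IDO1 line was higher at 200 of them (2.28% of the genes compared) and lower at 195 (2.22%). Scaled by library totals instead, the count was 421, split into 147 higher and 274 lower, and the median log2 ratio of all genes went from 0.03 to -0.05. Across all genes compared the ratio was above 0 for 52.8%, and the 5th and 95th percentiles were -0.79 and 0.81. Between the lines in DMF the spread was smaller, with a median of -0.01 and these percentiles at -0.38 and 0.35. The share of all genes above 0 in DMF was not counted, so list counts in DMF stand beside that median only. In DMF, the lines were at least 2-fold apart at 38 of 8500 genes (0.447%). Set against wild type with DMF in place of wild type with indole, the IDO1 line with indole had 31 of 8543 genes (0.363%) at least 2-fold apart, 22 higher and 9 lower.

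**Figure D1:**
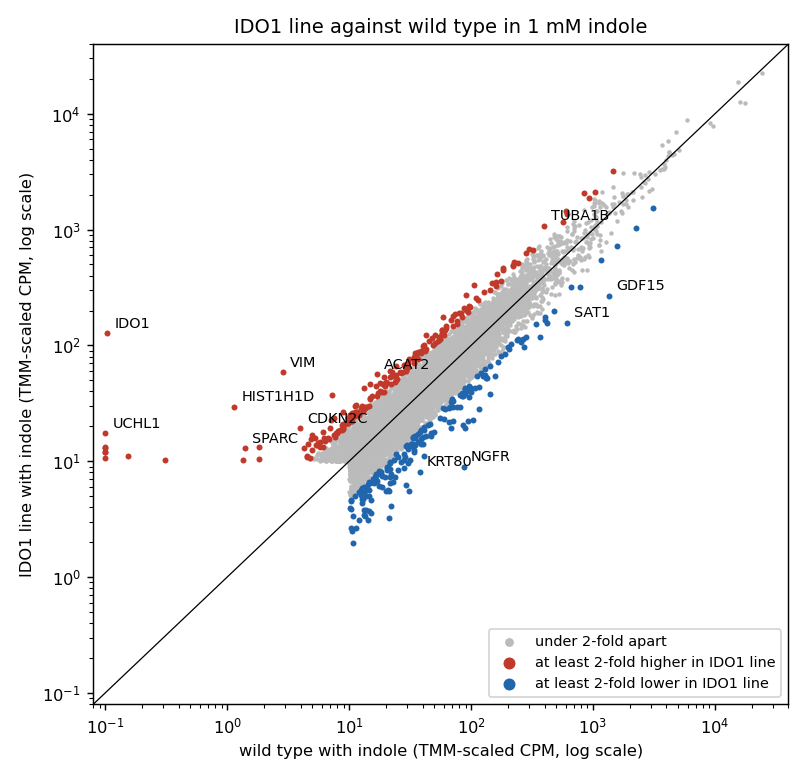
Each point is 1 of 8765 genes, with its TMM-scaled CPM in wild type with indole on the x axis and in the IDO1 line with indole on the y axis, both on log scales, and values of 0 drawn at the lower edge. Red points are from the 200 genes called higher in the IDO1 line and blue points from the 195 called lower. Genes tied to the sex chromosomes that are not reported are not drawn. The black line marks equal values. Most of the red and blue points lie close to the 2-fold limit, while IDO1, UCHL1 and VIM lie far to the upper left and NGFR to the lower right.

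The line difference in indole and that in DMF use no library in common. The 395 genes of the first and the 38 of the second shared 21, which is 5.32% of the indole genes and 55.3% of the DMF genes, and all 21 went the same way, 17 higher and 4 lower in the IDO1 line. Most of the indole genes were under the 2-fold limit in DMF, but the lower ones leaned the same way there. In DMF the 200 higher genes had a median log2 ratio of 0.05, with 176 within 0.5 of 0. The 195 lower genes had a median of -0.22, with 155 within 0.5 of 0. Over all genes compared in DMF the median was -0.01, with 5th and 95th percentiles of -0.38 and 0.35. Wild type with indole was the lowest of the 4 libraries at 185 of the 200 higher genes and the highest at 193 of the 195 lower genes. In part this follows from how the genes were chosen, since each had to be low or high in that library.

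**Figure D2:**
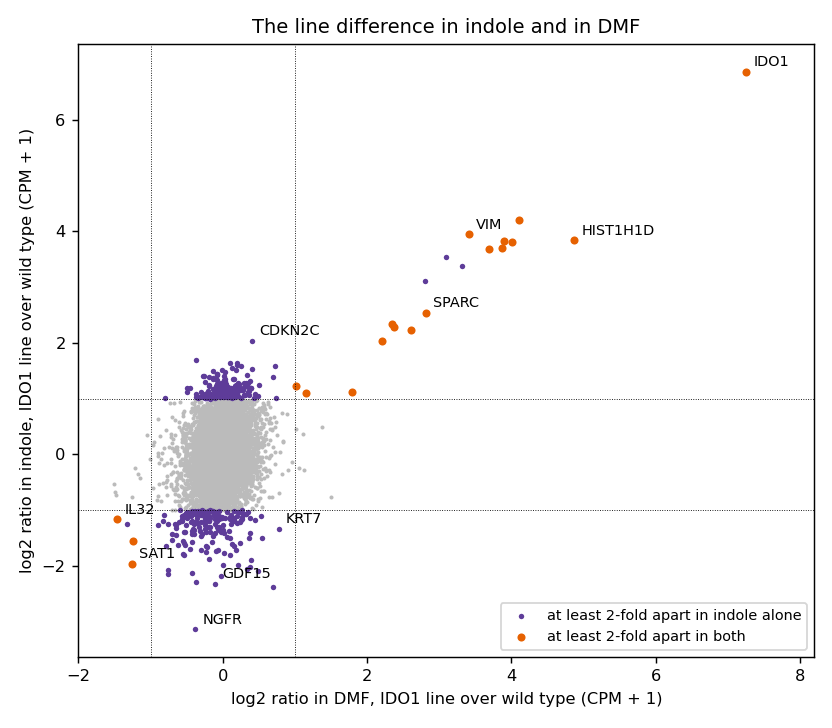
Each point is a gene, with the log2 ratio of the IDO1 line over wild type in DMF on the x axis and in indole on the y axis, and dotted lines at the 2-fold limits. Orange genes were at least 2-fold apart in both treatments and violet genes in indole alone. Most violet points stand above and below an x of 0, whereas IDO1, VIM, HIST1H1D and SPARC lie near the diagonal, and the 3 violet points beside them were under 10 CPM in DMF.

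Genes that separated the lines in both treatments were led by genes with few or no reads in wild type. UCHL1, a ubiquitin hydrolase of neurons, had 0, 0, 369 and 333 reads, a difference of at least 112-fold in indole. VIM, which encodes the mesenchymal filament protein vimentin, stood at 4.14, 2.84, 53.7 and 58.5 CPM and was 20.6-fold higher (15.7 to 27.5). IRS4, an insulin receptor substrate, had 1, 0, 360 and 249 reads and was 83.9-fold over the floor in indole, with a lower limit of 67.8-fold. Each of these was high in both libraries of the IDO1 line and low in both of wild type, with or without indole. The metalloprotease ADAMTS1, the limb and hindgut homeobox gene HOXD13 and the cell adhesion gene CADM1 had 0 reads in both wild type libraries. In indole they were 77.9-fold, 76.8-fold and 68.4-fold over the floor, with lower limits of 62.8-fold, 62.0-fold and 55.1-fold.

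SPARC, a matrix glycoprotein, stood at 1.13, 1.4, 14.0 and 12.9 CPM and was 9.25-fold higher in indole (6.21 to 14.3). GJA1, the gap junction protein connexin 43, stood at 1.55, 1.81, 12 and 13.3 CPM and was 7.34-fold higher (5.14 to 10.8). The neuronal vesicle gene NRSN2 was 7.7-fold higher (5.1 to 12.1) and the fetal RNA-binding protein gene IGF2BP1, with 4, 6, 167 and 197 reads, 33.2-fold higher (15 to 91.6). CADM1, IGF2BP1 and HIST1H2AL were under 10 CPM in both DMF libraries and so were not compared there. Besides these, AMOT, a regulator of YAP, the homeobox genes EN2 and DLX2, the small GTPase gene RND2 and SAMD11 passed the 2-fold limit upward in both treatments. On the lower side in both were SAT1, which acetylates polyamines, IL32, a cytokine gene, and KIAA0040. AMOT, EN2, DLX2, RND2, SAMD11 and KIAA0040 were chosen after their values were seen. KIAA0040 stood at 56.6, 65.7, 23.3 and 21.7 CPM, so both libraries of the IDO1 line lay below both of wild type. The linker histone gene HIST1H1D stood at 0.235, 1.14, 35.1 and 29.6 CPM, 26.0-fold higher in indole (17.0 to 41.8), and HIST1H2AL was 71.1-fold higher (24.0 to 348). Histone targets are uncertain because near-identical copies may share reads.

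A count of genes that were off in one line and on in the other went the same way in both treatments. In indole, 105 genes had at most 3 reads in wild type and at least 30 in the IDO1 line, and in DMF 117 did. The 2 sets shared 89 genes, 84.8% of the indole set and 76.1% of the DMF set. In wild type with DMF, 102 of the 105 had at most 3 reads. Most were low in the IDO1 line as well, and 9 of the 105 reached 10 CPM. In the opposite direction 6 genes were on in wild type and off in the IDO1 line in indole and 1 in DMF. Of these 6, SERPINA3, an acute phase protease inhibitor gene, had 12, 77, 1 and 3 reads, 25.4-fold lower (8.37 to 126), and the chemokine gene CCL25 had 2, 72, 4 and 3 reads, 23.7-fold lower (7.8 to 118). Both were highest in wild type with indole.

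Among 28 genes listed as expressed in neurons or embryonic kidney lines, 23 had reads in each library of the IDO1 line and 11 in each wild type library. Of all 20812 targets, 14892, 15079, 15505 and 15395 had reads in the 4 libraries. Of the 9 measured at 10 CPM in indole, 8 were above 0 and 4 were at least 2-fold higher, namely UCHL1, IRS4, HOXD13 and CADM1. The median log2 ratio was 0.57 in indole, 0.56 in DMF and 0.65 for the IDO1 line with indole against DMF-treated wild type. The list's summed levels were 308, 273, 369 and 330 CPM. Further members had low counts in the IDO1 line and none in wild type, such as the kidney development gene SALL1, with 0, 0, 108 and 69 reads, and LIN28B, an inhibitor of let-7 maturation, with 0, 0, 38 and 56. SALL1 and LIN28B were chosen after their values were seen. This list was drawn up with the results in view, so its direction supports nothing, and the part of other cells in these values was not tested. Of 17 leukocyte markers and of 13 hepatocyte and erythroid markers, 0 reached 10 CPM, with sums of 10.7 to 12 and 2.06 to 4.47 CPM over the 4 libraries.

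Genes of mitosis were the gene group with the highest medians in the comparison. In mitosis the kinases and cyclins drive entry, the kinetochore joins chromosomes to the spindle, kinesins build the spindle, and the anaphase-promoting complex ends the phase. Of 21 measured kinases, cyclins and regulators of that complex, 20 were above 0 and 13 at least 2-fold higher, with a median log2 ratio of 1.14. Of 15 kinetochore and centromere genes, all 15 were above 0 and 8 at least 2-fold higher, with a median of 1.03. Of 20 kinesin and spindle genes, all 20 were above 0 and 7 at least 2-fold higher, with a median of 0.92. For all genes compared, 2.28% were at least 2-fold higher, 52.8% were above 0 and the median was 0.03. In DMF the same lists had medians of 0.01, 0.06 and 0.07, and 0 members were at least 2-fold apart. Against wild type with DMF, the medians for the IDO1 line with indole were 0.04, 0.10 and 0.06.

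BIRC5, which encodes survivin of the chromosomal passenger complex, stood at 410, 162, 453 and 413 CPM and was 2.55-fold higher in the IDO1 line in indole (2.45 to 2.66). The mitotic cyclin gene CCNB1 stood at 119, 47.3, 113 and 115 CPM, a 2.43-fold difference (2.25 to 2.63). Wild type with indole alone was low for both, and the other 3 libraries lay close together. The checkpoint genes MAD2L1 and BUB1 were 2.42-fold (2.28 to 2.56) and 2.47-fold (2.18 to 2.8) higher. Among kinetochore genes, CENPW stood at 37.4, 13.2, 40.2 and 42.9 CPM, 3.26-fold higher (2.83 to 3.76), and SPC24 of the NDC80 complex at 47.4, 14.8, 54.7 and 46.8 CPM, 3.15-fold higher (2.76 to 3.61). NUF2 of the same complex was 3.01-fold higher (2.34 to 3.91). DLGAP5, a spindle microtubule protein gene, and PRC1, which bundles the central spindle, were 2.46-fold (2.31 to 2.63) and 2.47-fold (2.25 to 2.72) higher. The exception on the first list was the phosphatase gene CDC25B, with a log2 ratio of -0.62, chosen after its value was seen.

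Promoters of cell cycle genes of the G2 and M phases are known to carry the CHR, an element bound by the DREAM and MuvB complexes, often together with CCAAT boxes bound by NF-Y. In 300-base promoter windows from RefSeq (build GRCh38.p14, 250 bases before to 50 after the start), the CHR letters TTTGAA stood on either strand in 32 of 47 promoters found for the 3 mitosis lists, or 68.1%. The share was 9.07% of 7166 promoters of genes compared and 15.4% of 27305 promoters in the table. Of 23 DNA replication promoters 0 held it. CCAAT on either strand stood in 35 of the 47 (74.5%), in 15 of the 23 replication promoters (65.2%) and in 37.3% of the genes compared. It was not particular to the higher lists. The ATF4 target list given below, with all measured members lower in the IDO1 line, held CCAAT in 10 of 16 promoters (62.5%). A match describes the letters in the window and is neither a bound site nor a cause. The 6 examples shown are from genes at least 2-fold higher, 100 bases up to the start, with TTTGAA and CCAAT in capitals. They lie at chr15:90994536-90994635 (minus strand, PRC1), chr15:59105046-59105145 (plus, CCNB2), chr16:23678789-23678888 (plus, PLK1), chr15:40160969-40161068 (plus, BUB1B), chr1:43358881-43358980 (plus, CDC20) and chr2:26785956-26786055 (plus, CENPA).
PRC1: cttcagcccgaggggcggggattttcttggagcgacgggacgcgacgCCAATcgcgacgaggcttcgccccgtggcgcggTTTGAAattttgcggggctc
CCNB2: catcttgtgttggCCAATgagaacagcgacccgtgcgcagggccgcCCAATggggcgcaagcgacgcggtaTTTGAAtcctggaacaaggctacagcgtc
PLK1: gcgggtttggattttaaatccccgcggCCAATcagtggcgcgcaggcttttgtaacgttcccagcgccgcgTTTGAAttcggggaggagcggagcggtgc
BUB1B: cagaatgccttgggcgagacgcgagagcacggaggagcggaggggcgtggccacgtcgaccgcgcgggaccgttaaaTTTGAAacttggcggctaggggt
CDC20: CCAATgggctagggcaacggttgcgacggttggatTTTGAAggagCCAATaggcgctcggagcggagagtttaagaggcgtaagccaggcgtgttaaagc
CENPA: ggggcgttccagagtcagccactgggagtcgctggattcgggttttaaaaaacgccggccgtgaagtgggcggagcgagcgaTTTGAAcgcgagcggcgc

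In these stretches the TTTGAA begins 20 bases before the start in PRC1, 29 in CCNB2, 29 in PLK1, 23 in BUB1B, 18 in CENPA and 65 in CDC20. The stretches of BUB1B and CENPA hold no CCAAT. KPNA2 and CKAP2L, also at least 2-fold higher with the CHR letters in their 100 bases, are not shown. In KPNA2 the letters stand on the other strand, 99 bases before the start. The mitotic cyclin gene CCNB2 stood at 122, 50.7, 123 and 122 CPM, a 2.41-fold difference in indole (2.23 to 2.59). PLK1, the polo-like kinase of mitotic entry, stood at 233, 109, 268 and 258 CPM, a 2.37-fold difference (2.25 to 2.5). For both, 3 libraries were nearly level and wild type with indole was low. BUB1B, a checkpoint kinase gene, CDC20, the activator of the anaphase-promoting complex, and CENPA, the centromeric histone, were 2.39-fold (2.16 to 2.64), 2.27-fold (2.15 to 2.4) and 2.21-fold (1.88 to 2.61) higher. CCNB2, PLK1, BUB1B, CDC20 and CENPA were chosen after their values were seen, among genes with TTTGAA in these 100 bases.

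**Figure D3:**
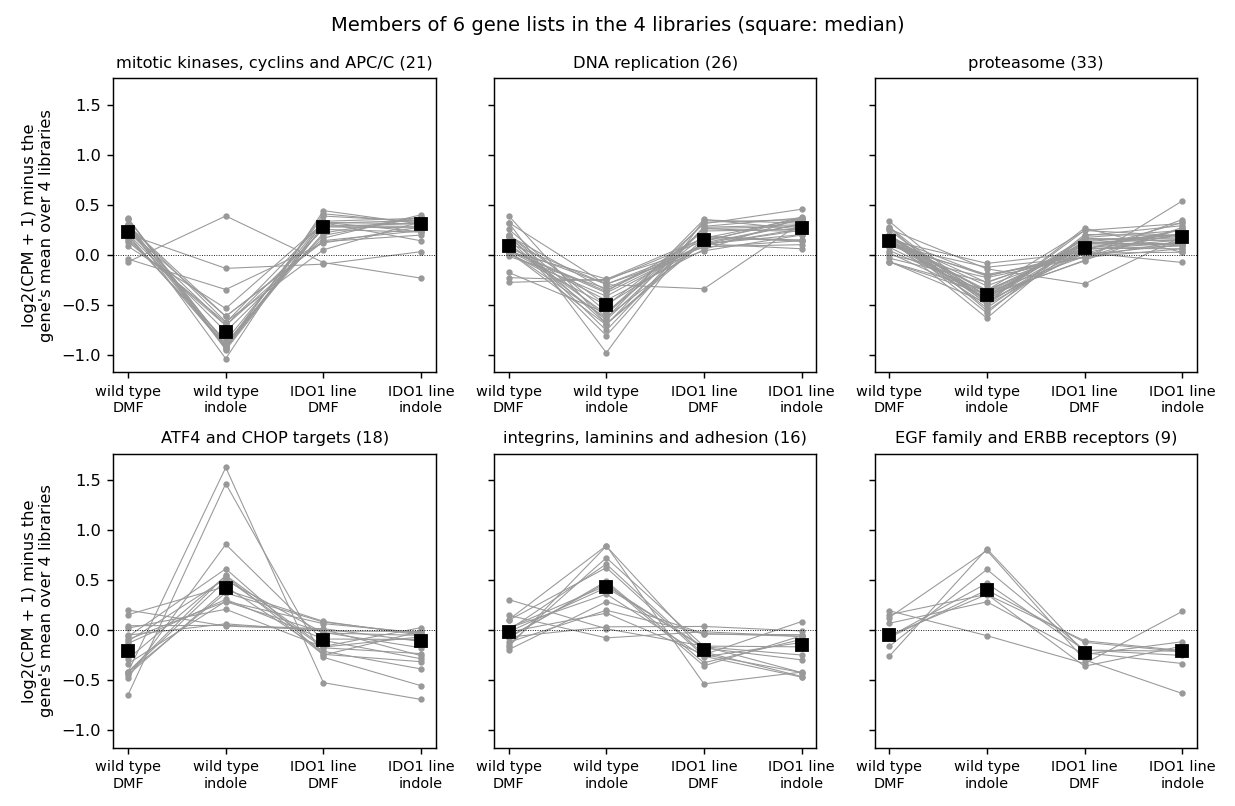
Each grey line is 1 member of a gene list, plotted as its log2(CPM + 1) minus its mean over the 4 libraries on the y axis against the 4 libraries on the x axis, and black squares are medians. In the 3 upper lists wild type with indole is the low library, in the 3 lower lists the high one, and both libraries of the IDO1 line stay near wild type with DMF.

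DNA replication genes were higher as well. All 26 measured members were above 0 and 6 at least 2-fold higher, with a median log2 ratio of 0.74 in indole and 0.07 in DMF. Over all genes compared in indole, 52.8% were above 0 and 2.28% at least 2-fold higher. RFC2, a subunit of the clamp loader, stood at 102, 40.8, 104 and 102 CPM and was 2.49-fold higher (2.29 to 2.71). CDC45 of the replicative helicase was 2.3-fold higher (2.11 to 2.5), and its ring subunits MCM7 and MCM6 were 2.11-fold (2.04 to 2.18) and 2.09-fold (2.0 to 2.18) higher. Of 16 nucleotide synthesis genes 15 were above 0, with a median of 0.63. Among them TYMS, which makes thymidylate, stood at 624, 281, 580 and 622 CPM and was 2.21-fold higher (2.14 to 2.28). All 14 measured genes of homologous recombination and the Fanconi pathway were above 0, with a median of 0.64, and 0 reached the 2-fold limit. FANCA, of the Fanconi core complex, was 2.01-fold higher (1.78 to 2.29) without a pseudocount. Set against DMF-treated wild type, the IDO1 line with indole had medians of 0.15 for DNA replication, 0.074 for nucleotide synthesis and 0.26 for homologous recombination.

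Among regulators of the G1 phase the values were mixed, with 11 of 18 above 0 and a median of 0.32. CDKN2C, the inhibitor p18 of the G1 kinases CDK4 and CDK6, stood at 17.5, 3.93, 23.6 and 19.3 CPM and was 4.91-fold higher (3.83 to 6.37). It was the member of the G1 list furthest from 0, and again only wild type with indole was low. MYBL2, a transcription factor of the MuvB complex, was 1.95-fold higher (1.83 to 2.09). The inhibitor CDKN1A, chosen after its value was seen, was 1.39-fold lower (1.34 to 1.43). Replication-dependent histones were above 0 at 13 of 14 targets, with a median of 0.62 in indole and 0.27 in DMF, uncertain because of near-identical copies. With that reference changed to DMF-treated wild type, the G1 list had a median of 0.04 and the histones 0.08.

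In the IDO1 line against wild type, sterol synthesis genes were higher in indole and lower in DMF. The listed genes summed to 4486, 2375, 3366 and 3363 CPM in the 4 libraries. The mevalonate pathway makes cholesterol from acetyl-CoA, and SREBP transcription factors set the level of its enzymes. Of 18 measured members 16 were above 0 and 2 at least 2-fold higher in indole, with a median log2 ratio of 0.51. The shares over all genes compared were 52.8% and 2.28%. In DMF 1 of 18 was above 0 and the median was -0.39, beside an all-gene median of -0.01. ACAT2, which joins acetyl-CoA units, stood at 58.6, 16.8, 45.2 and 56.3 CPM and was 3.35-fold higher in indole (2.96 to 3.81). HMGCS1, the next enzyme, stood at 224, 82.5, 163 and 189 CPM and was 2.29-fold higher (2.16 to 2.43). For both, wild type with DMF was the highest library and wild type with indole the lowest, with the IDO1 line between them. Against wild type with DMF, the list's median in the IDO1 line with indole was -0.38. MVK and EBP, an early and a late enzyme, were 1.72-fold (1.59 to 1.87) and 1.69-fold (1.61 to 1.76) higher in indole.

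Genes that control cholesterol supply also differed in direction between the treatments. Of 11 measured members 8 were above 0 in indole, with a median of 0.29, and 1 of 11 in DMF, with a median of -0.43. Over all genes compared, 52.8% were above 0 in indole, and the median in DMF was -0.01. INSIG1, which holds SREBP in the endoplasmic reticulum, stood at 353, 135, 188 and 211 CPM, so wild type with DMF was highest and wild type with indole lowest. In indole it was 1.56-fold higher in the IDO1 line (1.49 to 1.64). Fatty acid synthesis genes had a median of 0.18 over 14 members in indole and -0.30 in DMF, and the fatty acid synthase gene FASN was 1.73-fold higher (1.7 to 1.76) with 2524, 1043, 1908 and 1806 CPM. The medians of the cholesterol supply and fatty acid lists against DMF-treated wild type were -0.32 and -0.29.

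Glycolysis and glucose transport had a median of 0.42 over 17 genes in indole and -0.24 in DMF, with 12 above 0 and 1 at least 2-fold higher. That gene, the aldolase ALDOA, stood at 18.4, 9.25, 21.3 and 20.8 CPM and was 2.25-fold higher (1.88 to 2.7). GAPDH was 1.5-fold higher (1.49 to 1.51) and PGAM1 1.69-fold (1.65 to 1.74), while the transporter SLC2A1, chosen after its value was seen, had a log2 ratio of -0.24. Nuclear genes of the respiratory chain were above 0 at 27 of 27 members in indole and at 4 of 27 in DMF, with medians of 0.57 and -0.15. Over all genes compared, 52.8% were above 0 in indole, and the median in DMF was -0.01. ATP5G1, a ring subunit of ATP synthase, stood at 127, 57.3, 119 and 129 CPM and was 2.25-fold higher (2.09 to 2.41). It was the respiratory chain member past the 2-fold limit. Against DMF-treated wild type the glycolysis median was -0.21 and the respiratory chain median -0.05.

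Lists of the machinery that makes, splices, folds and degrades gene products had positive medians with few genes past the 2-fold limit. All 26 splicing factors were above 0, with a median of 0.58, and SRSF7 and HNRNPM were 2.26-fold (2.15 to 2.37) and 2.15-fold (2.0 to 2.31) higher. All 33 proteasome genes were above 0, with a median of 0.56 and 0 past the limit. The lid deubiquitinase gene PSMD14 stood at 86.9, 69.1, 87.6 and 133 CPM and was 1.93-fold higher (1.8 to 2.06), so here the IDO1 line with indole was the high library. All 23 mitochondrial ribosomal protein genes were above 0, with a median of 0.57, and MRPS18B was 2.02-fold higher (1.9 to 2.16). Heat shock and chaperonin genes had a median of 0.50, with 20 of 21 above 0, and the chaperonin subunit CCT5 was 1.83-fold higher (1.78 to 1.88). Ribosome biogenesis had a median of 0.47, with 22 of 24 above 0, and the nucleolar protein gene NCL was 1.57-fold higher (1.53 to 1.61). In DMF these 5 lists had medians between -0.06 and 0.03. Their medians against DMF-treated wild type were 0.05 for splicing, -0.0038 for the proteasome, 0.07 for mitochondrial ribosomal proteins, 0.11 for heat shock genes and 0.05 for ribosome biogenesis.

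Cytosolic ribosomal proteins differed from the mitochondrial ones. Of 34 listed genes 23 were above 0 in indole, with a median of 0.10, and of 34 in DMF 0 were above 0, with a median of -0.28. Over all genes compared, 52.8% were above 0 in indole, and the median in DMF was -0.01. RPL22 stood at 119, 42.3, 118 and 123 CPM and was 2.91-fold higher (2.68 to 3.15). Over all 74 ribosomal protein genes compared, 4 were at least 2-fold higher, namely RPL14, RPL23A, RPL22 and RPS7, 1 was at least 2-fold lower, and the median was 0.08. Of all genes compared, 2.28% were at least 2-fold higher and 2.22% at least 2-fold lower. Pseudogene copies of these genes may share reads with them, so single values are uncertain. The listed genes had a median of -0.19 against DMF-treated wild type.

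Medians of the genes compared changed with the length of the gene's longest annotated transcript. With genes split into 5 equal groups from the shortest transcripts to the longest, the median log2 ratio in indole was 0.20, 0.11, 0.05, -0.02 and -0.11. The groups held 70, 49, 35, 27 and 8 genes at least 2-fold higher and 32, 20, 34, 32 and 57 at least 2-fold lower. In DMF the medians of the 5 groups lay between -0.09 and 0.05 in the opposite order. Groups by mean CPM had medians of -0.04 to 0.13, and groups by GC content 0.10 to -0.05. The length and GC groups cover 8131 of the 8765 genes (92.8%), those with a matched transcript. The part of transcript length in the higher medians of ribosomal, proteasome and respiratory chain genes and in the lower medians of adhesion genes was not tested.

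Targets of ATF4 and CHOP, the transcription factors of the amino acid and unfolded protein stress response, were lower in the IDO1 line in indole. Of 18 measured members 0 were above 0 and 3 at least 2-fold lower, against 2.22% of all genes compared, and the median log2 ratio was -0.49. In DMF the list had a median of 0.04, with 10 of 17 above 0, and against wild type with DMF it was 0.04. GDF15, a secreted stress factor, stood at 326, 1349, 302 and 269 CPM and was 5.01-fold lower (4.87 to 5.17). CHAC1, which degrades glutathione, stood at 19.2, 86.3, 25.2 and 20.5 CPM and was 4.21-fold lower (3.77 to 4.71). SLC7A11, the cystine transporter gene, stood at 73.9, 188, 96.0 and 84.4 CPM and was 2.23-fold lower (2.1 to 2.36). In these 3 genes wild type with indole was the high library, and both libraries of the IDO1 line lay near wild type with DMF. ATF4 itself, chosen after its value was seen, was 1.25-fold lower (1.22 to 1.28).

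The C/EBP-ATF composite element through which ATF4 acts is known from ASNS, the asparagine synthetase gene. The letters TGATGNAA stood on either strand in 4 of 16 promoter windows found for the ATF4 list, or 25%, against 1.49% of the windows of all genes compared and 3.67% of all windows. ASNS is shown because it is the classical target with the element, 100 bases up to the start at chr7:97872409-97872508 (GRCh38.p14, minus strand), with the element in capitals.
ASNS: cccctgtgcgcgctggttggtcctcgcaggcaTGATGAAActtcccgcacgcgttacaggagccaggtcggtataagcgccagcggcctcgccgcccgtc

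There the element begins 68 bases before the start. ASNS stood at 55.5, 99.4, 57.0 and 67.4 CPM and was 1.48-fold lower in the IDO1 line in indole (1.37 to 1.59), and it was also chosen after its value was seen. Serine and glycine enzymes include members of the ATF4 list. Their median was -0.40 over 11 genes, and PSAT1, of serine synthesis, was 1.44-fold lower (1.37 to 1.51), but MTHFD1, a cytosolic folate enzyme, was 1.71-fold higher (1.62 to 1.8). Of 11 amino acid transporter genes 8 were below 0, with a median of -0.31. Cytosolic tRNA synthetases, some of them known ATF4 targets, were mixed, with 12 of 20 above 0 and a median of 0.14, from CARS 1.57-fold lower (1.36 to 1.81) to KARS 1.71-fold higher (1.58 to 1.84). In DMF the serine and glycine, transporter and synthetase lists had medians of 0.05, 0.03 and -0.03, and against DMF-treated wild type 0.12, -0.0089 and 0.10.

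Other stress lists had smaller medians. Folding and degradation genes of the endoplasmic reticulum were below 0 at 18 of 21 members, with a median of -0.15 and 0 past the 2-fold limit, and the chaperone gene HSPA5 stood at 868, 1278, 826 and 786 CPM, 1.63-fold lower (1.59 to 1.66). Of 20 p53 targets 15 were below 0, with a median of -0.21. TP53INP1, a p53 target linked to autophagy, stood at 11.4, 30.4, 15.9 and 12.9 CPM and was 2.36-fold lower (2.03 to 2.75). NRF2 targets had a median of 0.02, with 2 of 17 at least 2-fold lower, against 2.22% of all genes compared. These were the exporter gene ABCC3 at 2.78-fold (2.36 to 3.3) and the ferritin heavy chain gene FTH1 at 2.02-fold (1.99 to 2.05). Autophagy and lysosome genes had a median of -0.23 over 22 members, and the cathepsin genes CTSD and CTSB were 1.85-fold (1.78 to 1.93) and 1.81-fold (1.72 to 1.89) lower. Against DMF-treated wild type these 4 lists had medians of -0.06, 0.09, -0.01 and -0.04.

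Interferon response genes had the lowest median of the 49 lists measured, -0.64 over 15 genes, with 13 below 0 and 3 at least 2-fold lower. Over all genes compared in indole, 2.22% were at least 2-fold lower and 52.8% were above 0. In DMF the median was -0.23. GBP2, a guanylate-binding protein gene, stood at 2.12, 10.5, 1.53 and 2.51 CPM and was 4.2-fold lower (3.06 to 5.88). STAT2, a transducer of type I interferon signals, stood at 61.0, 126, 51.4 and 54.1 CPM and was 2.34-fold lower (2.17 to 2.51), and its partner IRF9 and the regulator IRF7 were 1.91-fold (1.68 to 2.19) and 2.51-fold (2.18 to 2.89) lower. Wild type with indole was the high library for all 4 genes. The interferon-induced genes ISG15 and OAS3, chosen after their values were seen, had log2 ratios of 0.07 and 0.23. Of 9 genes of MHC class I presentation 8 were below 0, with a median of -0.49, and HLA-E stood at 236, 402, 175 and 174 CPM, 2.31-fold lower (2.22 to 2.4). Among NF-kB outputs, LCN2, an iron-sequestering protein gene, stood at 8.23, 12.7, 2.67 and 4.75 CPM and IL32 at 10.1, 10.1, 3.02 and 3.92 CPM. Both were lower in both libraries of the IDO1 line, LCN2 2.67-fold (2.09 to 3.44) and IL32 2.57-fold (1.96 to 3.4) in indole. With DMF-treated wild type as reference, the interferon median was -0.26, the MHC class I median -0.22 and the NF-kB median -0.07.

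Cell adhesion genes were lower. Integrins and laminins tie epithelial cells to the basement membrane. Of 16 members 15 were below 0 and 5 at least 2-fold lower, with a median of -0.56 in indole and -0.20 in DMF. Over all genes compared in indole, 2.22% were at least 2-fold lower and 52.8% were above 0. ITGA2, a collagen receptor subunit, stood at 53, 107, 51.1 and 42.9 CPM and was 2.51-fold lower (2.31 to 2.72). CD44, the hyaluronan receptor gene, stood at 240, 402, 153 and 167 CPM and was 2.41-fold lower (2.32 to 2.52). For CD44 the IDO1 line was low in both treatments, and for ITGA2 only wild type with indole stood out. LAMB1, a laminin chain gene, and ITGB4, the hemidesmosome integrin, were 2.25-fold (2.07 to 2.45) and 2.14-fold (2.09 to 2.19) lower. The list's median against DMF-treated wild type was -0.23.

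Epithelial junction genes were below 0 at 15 of 18 members, with a median of -0.35 in indole and -0.13 in DMF. TJP1, the scaffold of tight junctions, stood at 4.61, 15, 7.14 and 4.65 CPM and was 3.22-fold lower (2.53 to 4.13). CDH1, which encodes E-cadherin, stood at 77.2, 130, 65.9 and 62.0 CPM and was 2.1-fold lower (1.96 to 2.25). The claudin genes CLDN3 and CLDN7 were 2.01-fold (1.87 to 2.16) and 1.92-fold (1.85 to 2.0) lower. Keratins had a median of -0.40 over 7 genes in indole, with 5 below 0 and 2 above. In DMF their median was -0.51, and 1 of 6 was above 0. KRT80 stood at 4.42, 37.8, 6.62 and 8.1 CPM and KRT7 at 8.84, 59.4, 15.9 and 22.9 CPM, which is 4.66-fold (3.92 to 5.58) and 2.59-fold (2.32 to 2.9) lower. For KRT80 and KRT7 the IDO1 line with indole lay above the DMF libraries and below wild type with indole. KRT18 and KRT15 had log2 ratios of -0.41 and 0.57 in indole and -0.41 and -0.60 in DMF. When DMF-treated wild type was the reference, junction genes had a median of -0.15 and keratins -0.29.

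Of 9 genes of the EGF family and its receptors 8 were below 0 and 2 at least 2-fold lower, with a median of -0.62 in indole and -0.22 in DMF. Over all genes compared in indole, 2.22% were at least 2-fold lower and 52.8% were above 0. The ligand gene AREG stood at 265, 423, 197 and 156 CPM and was 2.71-fold lower (2.6 to 2.82), and the ligand genes BTC and TGFA were 2.44-fold (1.94 to 3.08) and 1.84-fold (1.68 to 2.02) lower. Among receptors, ERBB3 was 1.62-fold lower (1.48 to 1.77). Outputs of the ERK pathway downstream had a median of -0.36 over 15 genes, with 12 below 0 and 0 past the limit. The ERK phosphatase gene DUSP4 was 1.85-fold lower (1.78 to 1.92), but ETV4, an ERK-induced factor, was 1.67-fold higher (1.51 to 1.86). Immediate early genes were below 0 at 13 of 14 members in indole, with a median of -0.46, and at 11 of 14 in DMF, with a median of -0.21. In DMF 2 members were at least 2-fold apart, FOS and EGR1, with log2 ratios of -1.49 and -1.22. In indole these 2 had -0.67 and -0.24, and both were chosen after their values were seen. The AP-1 gene FOSL2 had its highest level, 66.4 CPM, in wild type with indole and 28.7 in the IDO1 line with indole, 2.31-fold lower (2.09 to 2.56), and JUNB at 152, 180, 93.3 and 89.5 CPM, 2.01-fold lower (1.89 to 2.13). For these 3 lists DMF-treated wild type as reference gave -0.15, -0.08 and -0.29.

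Among the genes compared, the log2 ratio of CPM + 1 furthest below 0, -3.14, was that of NGFR, the low-affinity neurotrophin receptor. It stood at 15.5, 86.8, 11.6 and 8.99 CPM and was 9.65-fold lower (8.25 to 11.4). Of the other 3 neurotrophin signalling genes measured, the sorting receptor gene SORT1 was 1.52-fold higher (1.32 to 1.75) and SH2B1 1.2-fold lower (1.11 to 1.29). TNFRSF6B, a decoy receptor gene for FAS ligand, stood at 28.7, 89.6, 16.6 and 19.5 CPM and was 4.6-fold lower (4.11 to 5.16). NGFR and TNFRSF6B were each several times higher in wild type with indole than in any other library. The nuclear receptor gene NR4A2 was 4.06-fold lower (3.69 to 4.46), the amino acid transporter gene SLC43A2 4.29-fold (3.86 to 4.78) and TCP11L2 5.59-fold (4.54 to 6.94). The kinase gene SGK2 was 5.47-fold lower (3.85 to 7.94) and LURAP1L 5.45-fold (4.27 to 7.03). LOC100506123 and LOC100131096, 2 uncharacterised loci, were 6.54-fold (5.0 to 8.69) and 4.74-fold (3.88 to 5.82) lower.

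**Figure D4:**
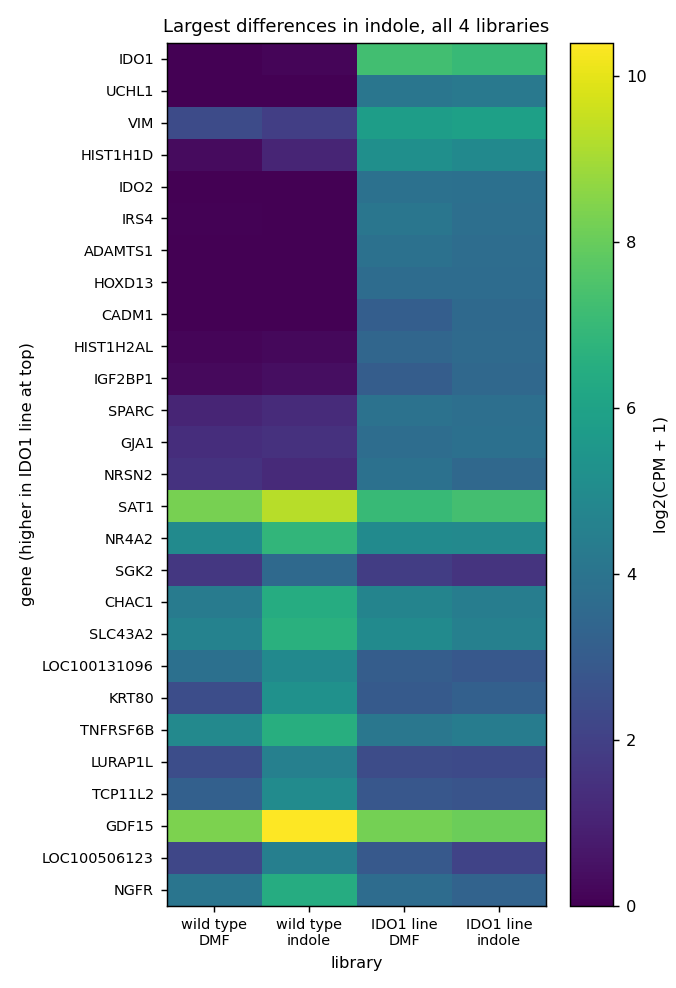
The colour of each cell is log2(CPM + 1) of 1 gene (rows) in 1 of the 4 libraries (columns), for the named genes with the largest log2 ratios in indole, higher in the IDO1 line at the top and lower at the bottom. The upper genes split the libraries by line, in DMF as in indole. Most of the lower genes, such as NGFR and GDF15, are bright in wild type with indole alone, and SAT1 is low in both libraries of the IDO1 line.

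Of 8 measured genes of tryptophan and NAD metabolism 3 were above 0, including IDO1 and IDO2, and the median was -0.04 in indole and 0.14 in DMF. Below 10 CPM, QPRT, which leads from the kynurenine pathway to NAD, had 0, 3, 130 and 145 reads, 48.9-fold higher in indole (16.4 to 240), and was chosen after its values were seen. It was near 0 in both wild type libraries and present in both of the IDO1 line. MAOA, a monoamine oxidase gene, and NADSYN1, which makes NAD, were 1.47-fold (1.17 to 1.83) and 1.4-fold (1.3 to 1.52) lower. NAMPT of NAD salvage, chosen after its value was seen, had a log2 ratio of -0.02. SAT1 of polyamine breakdown stood at 308, 614, 128 and 157 CPM and was 3.92-fold lower (3.77 to 4.09), whereas the spermidine synthase gene SRM was 1.83-fold higher (1.73 to 1.93).

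Of 7 measured genes of AHR, its partners and its targets, 3 were above 0 and 0 were 2-fold apart, with a median of -0.15. TIPARP, a target and repressor of AHR, stood at 7.48, 16.8, 7.84 and 8.73 CPM and was 1.92-fold lower (1.59 to 2.33). AHR itself was 1.08-fold higher (0.913 to 1.29). The classical targets lay under 10 CPM in both libraries and were chosen after their values were seen. CYP1A1, which oxidises aromatic compounds, had 18, 91, 29 and 24 reads and was 3.75-fold lower (2.37 to 6.15). CYP1B1 had 25, 87, 38 and 41 reads and was 2.1-fold lower (1.43 to 3.12), and AHRR, the receptor's repressor, had 40, 141, 87 and 31 reads and was 4.5-fold lower (3.03 to 6.87). In these 3 genes wild type with indole was the highest library. The CYP2S1 gene was 1.65-fold lower (1.51 to 1.81), and EREG, also an EGF family ligand, 1.19-fold higher (1.1 to 1.28). Genes of the pregnane X receptor group had a median of -0.12 over 4 members. Against DMF-treated wild type the AHR, pregnane X and tryptophan lists had medians of -0.01, 0.27 and 0.29.

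Hypoxia-inducible genes had a median of -0.18 in indole and -0.40 in DMF over 11 members. NDRG1 stood at 173, 369, 120 and 119 CPM and was 3.1-fold lower (2.96 to 3.25). HOX genes had a median of 0.09 over 12 members, and besides HOXD13 the gene HOXB9 was 2.44-fold higher (2.06 to 2.9). The mesenchymal list had a median of -0.36 over 5 members although VIM and SPARC were the only ones past the 2-fold limit and both were higher. The metastasis-linked gene S100A4 was 1.34-fold lower (1.31 to 1.38). With genes at 1 CPM or more included, this median was 0.73. Of the intestinal factors, KLF4 was 2.15-fold lower (1.95 to 2.36) and CA2, a carbonic anhydrase gene, 2.07-fold higher (1.83 to 2.35), with CA2 at 20.3, 19.2, 34.4 and 39.8 CPM higher in both libraries of the IDO1 line. DMF-treated wild type as reference gave medians of -0.34 for hypoxia, 0.22 for HOX and -0.21 for mesenchymal genes.

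**Figure D5:**
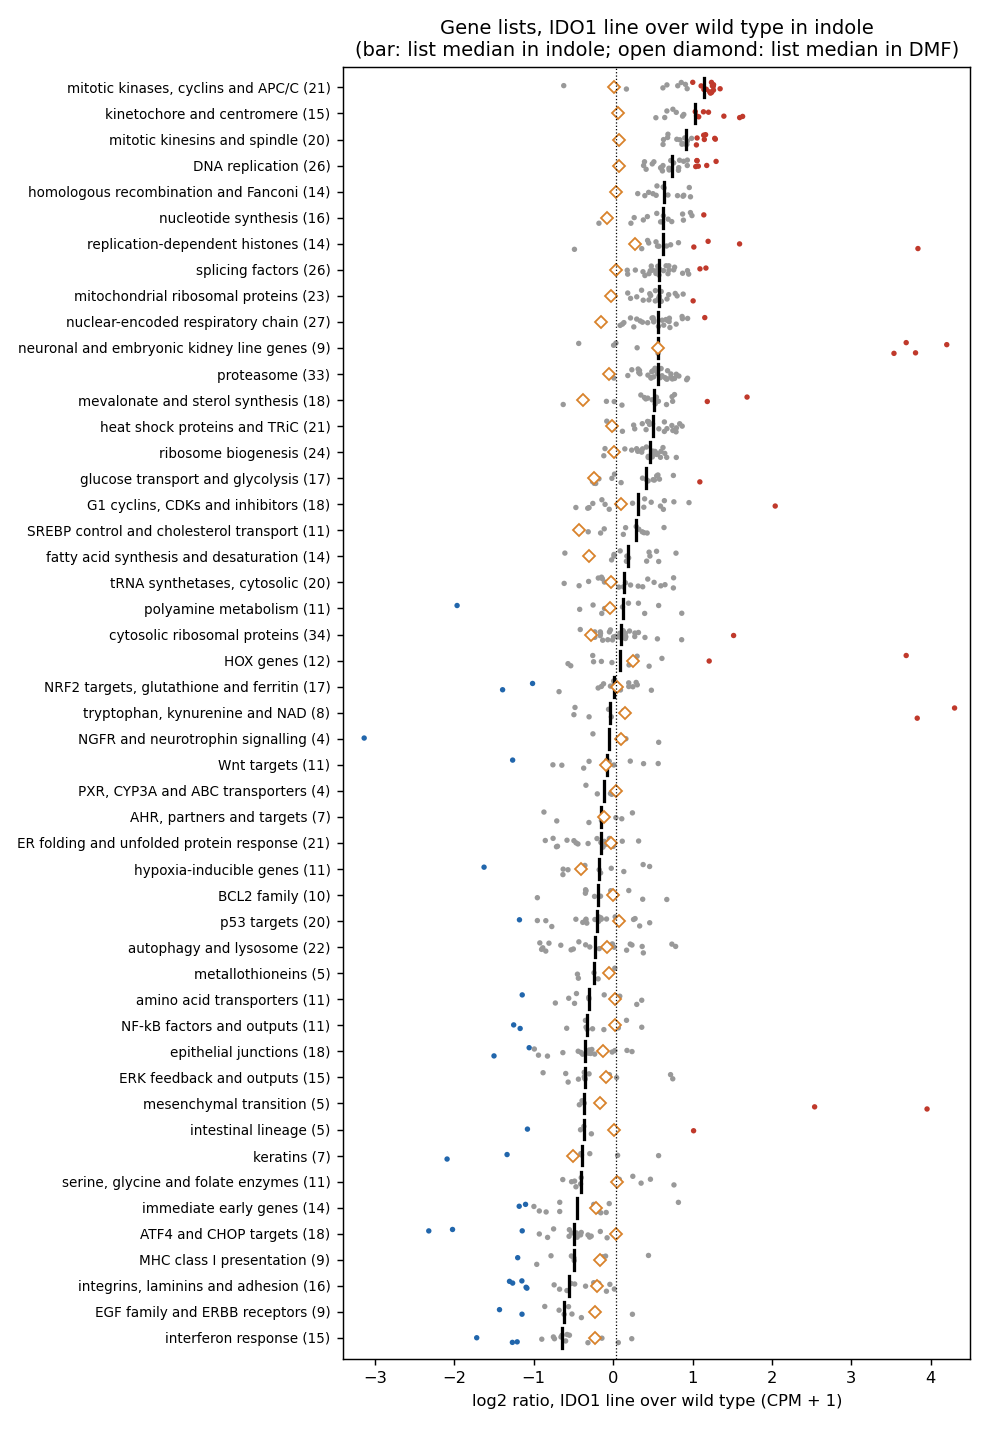
Each dot is 1 measured member of 1 of 49 gene lists, with the number of members in brackets, placed by its log2 ratio of the IDO1 line over wild type in indole on the x axis (IDO1, at 6.86, lies outside the range). Red and blue dots are at least 2-fold higher and lower, black bars are list medians in indole, open diamonds list medians in DMF and the dotted line the median of all genes, 0.03. The bars spread from 1.14 for mitotic kinases to -0.64 for interferon response, and most diamonds stay nearer to 0.

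Among the most abundant genes past the limit, tubulins, histones and the importin KPNA2 were higher and ferritin and MALAT1 lower. TUBB stood at 3289, 1453, 3686 and 3228 CPM and was 2.22-fold higher (2.19 to 2.25), and TUBA1C was 2.46-fold higher (2.41 to 2.5), both uncertain because tubulin copies may share reads. KPNA2 stood at 1459, 614, 1595 and 1363 CPM and was 2.22-fold higher (2.17 to 2.27). The translation factor gene EIF5A was 2.03-fold higher (2.0 to 2.07) and the RNA-binding protein gene EWSR1 2.07-fold (2.02 to 2.12). MALAT1, a nuclear noncoding RNA, stood at 1249, 2266, 1109 and 1026 CPM and was 2.21-fold lower (2.17 to 2.25). IER3, an early response gene, was 2.15-fold lower (2.11 to 2.19). Over 115 noncoding genes compared, the median was -0.07. At least 2-fold higher were 3 of them (2.61%, against 2.28% of all genes compared). At least 2-fold lower were 7 (6.09%, against 2.22%).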

How the data were processed

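The authors deposited raw read counts per amplicon target, 1 column per library, and the values are whole numbers with no normalization, per the file headers. The library kit was the Ion AmpliSeq transcriptome panel, per the labels' protocols. Per the submitters' processing notes the genome build was hg19, and no aligner or counting tool is given in the sources used here.

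Counts were scaled to CPM with TMM factors over the 4 libraries (edgeR 4.0.16, R 4.3.3). Genes with at least 10 CPM in 1 of the 2 libraries were compared as log2 ratios with a pseudocount of 1 CPM, which understates the difference of low genes, and 2-fold apart on that scale counts as called. Folds of named genes use CPM alone, and their 95% intervals are Clopper-Pearson intervals of the read split. Against 0 reads the fold is taken over a floor of 3 reads per library, and the lower limit of its 95% interval is given beside it. With 1 library a side there was no test. The fold and interval steps (Python 3.11.15) were tested on simulated counts with counting error alone, scaled by the genes known to be unchanged. That test did not cover the TMM scaling, PCR copies or any wider spread in these libraries.

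The 52 lists, holding 1011 genes, were chosen with earlier results of these data known. A rule named IDO1 and IDO2, the 15 largest ratios each way, the 10 most abundant called genes, the 5 genes each way with at most 3 reads on 1 side, and 4 members per list. It took 3 further genes, tied to the sex chromosomes, that are not reported, and a few other named genes are not reported here either. As alternatives, the scaling was changed to library totals, to DESeq2 1.42.0 size factors and to TMM over the 2 libraries. The pseudocount was set to 0.25 and 5, the minimum to 1 and 50 CPM or dropped, and DMF-treated wild type was taken as reference. Promoters came from RefSeq and matched 7166 of 8765 genes (81.8%). Only 13 of 18 sterol genes matched, so that motif check is void.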

Additional observations from a re-analysis of the deposited data

Results flagged for a closer look

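Some line differences went one way in indole and the other way in DMF. With 1 library per group, these differences between the treatments were not tested. The mevalonate and sterol list had a median log2 ratio (IDO1 line over wild type) of 0.51 in indole and -0.39 in DMF, the SREBP control and cholesterol transport list 0.29 and -0.43, and the glycolysis list 0.42 and -0.24. By its median, each of the 3 lists was lower in wild type with indole than in wild type with DMF.

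Among single genes, HNRNPA3, a splicing and RNA export factor, had log2 ratios of 1.00 in indole and -0.81 in DMF, at 71.5, 23.6, 40.5 and 48.4 CPM in wild type with DMF, wild type with indole, the IDO1 line with DMF and the IDO1 line with indole. KRT7 had -1.34 in indole and 0.78 in DMF, and GPR135, an orphan receptor gene, -1.11 and 0.54. HNRNPA3 and GPR135 were chosen after their values were seen.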

How the results depend on the processing

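No paired analysis was possible because each group had 1 library, and no replicate could be left out. The counts of 395 apart, 200 higher and 195 lower became 240, 123 and 117 with a pseudocount of 5, 756, 418 and 338 both with a minimum of 1 CPM and with no filter, 177, 103 and 74 with a minimum of 50 CPM, and 31, 22 and 9 against wild type with DMF. This last reference has another treatment, and its use for list medians was chosen after seeing the data. With wild type with DMF as reference 12 of 49 list medians held and 28 moved, by over 1.5 times or, for medians within 0.2 of 0, by at least 0.2. Among those, DNA replication went from 0.74 to 0.15, splicing from 0.58 to 0.05, the EGF family from -0.62 to -0.15, and 5 near 0 changed sign (fatty acid synthesis, polyamines, tryptophan, pregnane X and cytosolic ribosomal proteins). The other 9 medians, at least 0.2 from 0, changed sign: sterol synthesis to -0.38, SREBP control to -0.32, glycolysis to -0.21, respiratory chain to -0.051, proteasome to -0.0038, ATF4 targets to 0.036, p53 targets to 0.094, intestinal lineage to 0.011 and serine, glycine and folate enzymes to 0.12. With a minimum of 1 CPM and with no filter, the serine, glycine and folate median became 0.077 and 0.11 and the mesenchymal median 0.73 in both. With a minimum of 50 CPM, 4 of 49 lists had too few members for a median. Of 214 named genes 0 changed direction with the other scalings and pseudocounts tried. The cause of the changes was not tested. Genes with few reads are limited by depth.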
